A study of Mus musculus with 2 samples.

Results

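The cadherin genes of SV40 MES13, a mouse kidney line labelled as mesangial, were compared between a subline carrying the long noncoding RNA AI662270 and its control. Members were the protein-coding genes named Cdh or Pcdh followed only by a number. The table of 54713 genes held 34 of them, 23 Cdh genes and 11 Pcdh genes. The control subline received a control lentivirus and is labelled WT. The other subline received a lentivirus made to express AI662270 and is labelled as overexpressing it. Both were selected with 0.5 mg/ml puromycin, kept in 0.25 mg/ml puromycin with 10% serum, and otherwise labelled untreated. The treatment label gives the name of the cell line as what the virus expresses and Sox9, not AI662270, as the transcript checked by qRT-PCR. The labels do not name the promoter of the virus or say whether a subline is 1 clone. With 1 library per group nothing below can be checked between replicates, no test was possible, and each comparison describes these 2 libraries and not the conditions.

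Cadherins are calcium-dependent adhesion proteins of the plasma membrane. Classical cadherins bind the same or related cadherins on the next cell and hold the actin cytoskeleton through catenins at the adherens junction. Epithelia of the kidney tubule are known for E-cadherin (Cdh1) and kidney-specific cadherin (Cdh16), while N-cadherin (Cdh2) and cadherin-11 (Cdh11) are known from mesenchymal cells. Cdh2 is also found in proximal tubules. Loss of Cdh1 with gain of Cdh2 is known as the cadherin switch of epithelial-mesenchymal transition. Protocadherins share the extracellular repeats but lack the catenin-binding tail, and most are studied in the nervous system.

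The control library held 15727023 counts and the AI662270 library 15062482. AI662270 itself had 0 and 241 counts, in the order control then AI662270, which is the order of every pair below. CPM is the read count scaled to library size with TMM factors, and a level per kilobase (kb) is CPM divided by the deposited gene length. A gene was measured where its mean over both libraries was at least 1 CPM. It was called higher or lower where its log2 ratio, with a pseudocount of 0.5 CPM, was at least 1 in size and the exact 95% counting interval of its CPM ratio left out 1. Bracketed ranges are such exact intervals and cover counting error only. Of the 34 members 13 were measured, 2 were called higher and 3 lower. Over all 13268 measured genes 5.59% were called higher, 5.72% lower and 11.3% either way. Both higher members, Pcdh15 and Cdh11, passed the minimum through the AI662270 library alone, so a difference was built into their passing. The other 11 measured members had at least 1 CPM in each library, and 0 of them were called higher and 3 lower. Over the 12619 genes with at least 1 CPM in each library, 3.99% were called higher and 5.21% lower. The median log2 ratio was 0.23 over the 13 measured members and -0.03 over those 11, beside -0.02 over all measured genes.

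The labelled cell type was set against marker lists. Of 11 epithelial markers 10 had at least 1 CPM in each library, among them Epcam with 2810 and 1626 counts and Krt18 with 11914 and 5085 counts. Of 10 mesangial markers 4 reached 1 CPM in the control and 5 with AI662270. The mesangial markers Itga8 and Thy1 had 0 counts in both libraries, while Pdgfrb had 185 and 338 counts. The other mesangial markers at 1 CPM or more in both were Vim, Des with 26 and 58 counts, and Gata3. Pdgfra, Cspg4 and Tagln had under 1 CPM in both libraries. The libraries labelled mesangial thus held transcripts of both marker lists, but not evenly. Summed epithelial markers reached 1804 and 843 CPM. Summed mesangial markers reached 241 and 608 CPM, of which Vim alone held 221 and 569 CPM. Summed endothelial markers reached 0.592 and 1.41 CPM, with Tek, Emcn, Cldn5 and Tie1 at 0 counts. Of 5 proximal tubule markers 3 were measured, Lrp2 with 693 and 740 counts, Aqp1 with 232 and 64, and Cubn with 33 and 73. The measured podocyte markers were Podxl with 1869 and 661 counts and Synpo with 394 and 614. Tubb3 was the measured neural marker, with 340 and 1076 counts, and Cd68 the measured leukocyte marker, with 99 and 76.

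Cdh16 had the highest level per kb of any member in both libraries. This cadherin of tubular epithelium has a longer extracellular region and a shorter tail than the classical cadherins, and lies on chromosome 8 from 104601911 to 104624396 in build mm10, which holds for all coordinates here. It had 4945 and 4409 counts, or 85.8 (83.4 to 88.2) and 74.6 (72.4 to 76.9) CPM per kb. Per kb it made up 44.5% and 48.3% of the summed member level. In the control library Cdh1, Cdh3, Cdh24, Cdh2 and Cdh6 followed in that order, and of these neighbours Cdh2 and Cdh6 were not separated, at a ratio of 1.02 (0.946 to 1.10). In the AI662270 library the order after Cdh16 was Cdh24, Cdh1, Cdh2, Cdh3 and Pcdh19. There Cdh2 over Cdh3 stood at 1.08 (0.989 to 1.17), so these neighbours were not separated at this depth, while Cdh2 stood below Cdh1 by its ratio. The summed level of all members was 193 and 155 CPM per kb, and protocadherins held 4.32% and 8.18% of it.

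**Figure D1:**
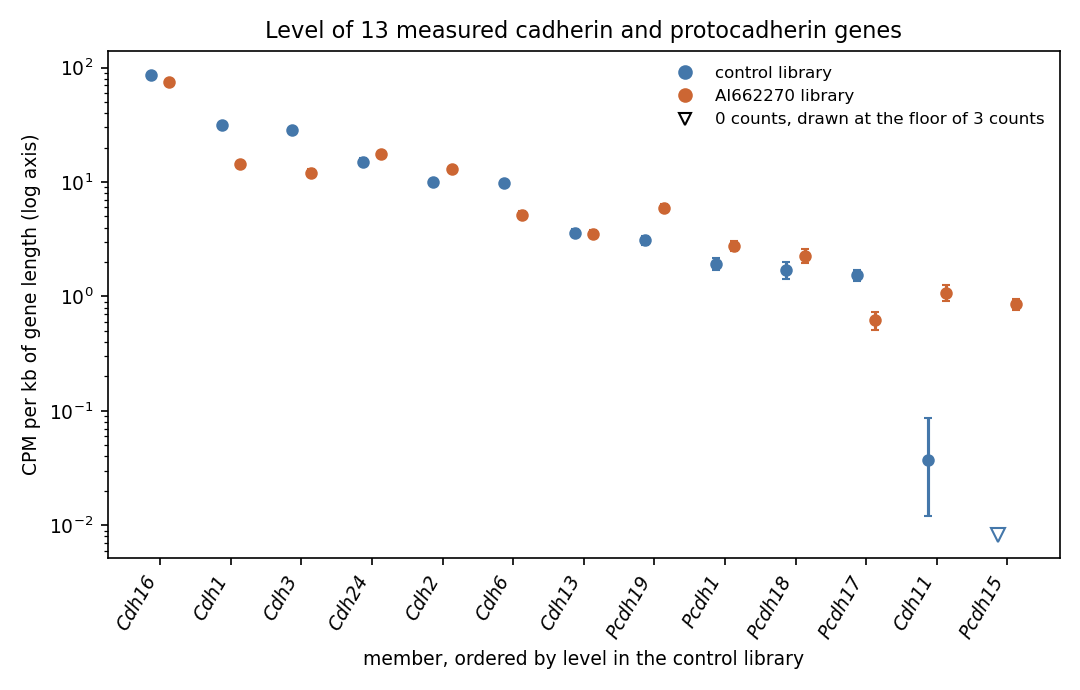
Level of each measured member in the control library (blue) and the AI662270 library (orange), in CPM per kb of gene length on a log axis, with exact 95% counting intervals. Cdh16 is highest in both at 85.8 and 74.6, Cdh11 goes from 0.0369 to 1.08, and Pcdh15, with 0 control counts, is drawn at the floor of 3 counts.

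The epithelial pair did not move alike. Cdh1, the adherens junction cadherin of epithelia, spans bases 106603351 to 106670246 of chromosome 8 (plus strand). Its counts were 2175 and 1030. Its level was 31.3 and 14.5 CPM per kb, 2.16-fold lower in the AI662270 library (2.01 to 2.33), past the size rule. Cdh16 was 1.15-fold lower (1.10 to 1.20) and did not pass it. The level of Cdh16 over that of Cdh1 was 2.74 (2.61 to 2.89) and 5.16 (4.82 to 5.53), and these ranges do not overlap. In bulk RNA, fewer cells with a transcript and less of it per cell cannot be told apart.

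Cdh3, or P-cadherin, is a classical cadherin of basal epithelium and placenta and the nearest cadherin gene to Cdh1. It spans bases 106510891 to 106557297 on the same strand and ends 46053 bases before Cdh1. Its 1892 and 823 counts made it 2.36-fold lower (2.17 to 2.56). Cdh1 over Cdh3 per kb stood at 1.10 (1.04 to 1.17) and 1.20 (1.09 to 1.32), ranges that overlap. Other measured genes around them did not pass the rule. The only one between them, Gm10073, had 60 and 114 counts, Zfp90 on the far side of Cdh3 had 48 and 31, and Tango6 on the far side of Cdh1 had 575 and 749. The 736 measured genes of chromosome 8 had a median log2 ratio of 0.06.

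Of the 10 measured epithelial markers 6 were called lower and 0 higher, beside 5.72% lower over all measured genes. Their median log2 ratio was -1.09. Cdh1 is 1 of the 6 and enters this median, so the list is not independent of it. The tight junction gene Cldn4 was 6.75-fold lower with 112 and 17 counts, and the splicing regulator gene Esrp1 was 2.95-fold lower with 2745 and 953 counts. Ocln, a tight junction gene, was 2.74-fold lower with 347 and 130 counts. Krt19, a keratin gene of the same list, had 375 and 495 counts, 1.29-fold higher (1.12 to 1.48), not past the rule. The summed epithelial marker level, with Cdh1 in it, was 1804 and 843 CPM. Its part in the lower Cdh1 and Cdh3 was not tested.

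The mesenchymal pair also differed in size. Cdh2, the N-cadherin gene on chromosome 18 from 16588877 to 16809246, was already abundant in the control library with 1238 and 1630 counts. Its level was 10.1 and 12.97 CPM per kb, 1.28-fold higher (1.19 to 1.38), and it did not pass the size rule. Cdh11, a type II cadherin of mesenchymal and bone-forming cells, lies on chromosome 8 from 102632095 to 102785642. It had 5 and 150 counts, or 0.329 and 9.63 CPM, 29.3-fold higher (12.3 to 91.5). Cdh11 stayed far below Cdh2, at 0.0834 times the Cdh2 level per kb in the AI662270 library (0.0700 to 0.0986). Of 5 measured mesangial markers 2 were called higher and 1 lower, beside 5.59% and 5.72% over all measured genes. The higher ones were Vim, with 3360 and 8872 counts, and Acta2, with 12 and 171. Acta2 passed the minimum through the AI662270 library alone, so a difference was built into its call. Gata3 was lower with 76 and 25. Summed mesangial markers were at 241 and 608 CPM, of which Vim alone held 221 and 569 CPM. The part of these markers in the higher Cdh11 was not tested.

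Set against each other per kb, Cdh2 stood at 0.323 times Cdh1 (0.301 to 0.346) in the control and at 0.897 times (0.830 to 0.971) with AI662270. Most of that change in proportion lay in the lower Cdh1, since the Cdh2 level moved by 1.28-fold and the Cdh1 level by 2.16-fold. The epithelial pair Cdh1 and Cdh16 still made up 60.8% and 57.6% of the summed member level, and the mesenchymal pair Cdh2 and Cdh11 5.26% and 9.09%. Without length scaling Cdh2 had fewer reads than Cdh1 in the control library and more in the AI662270 library.

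**Figure D2:**
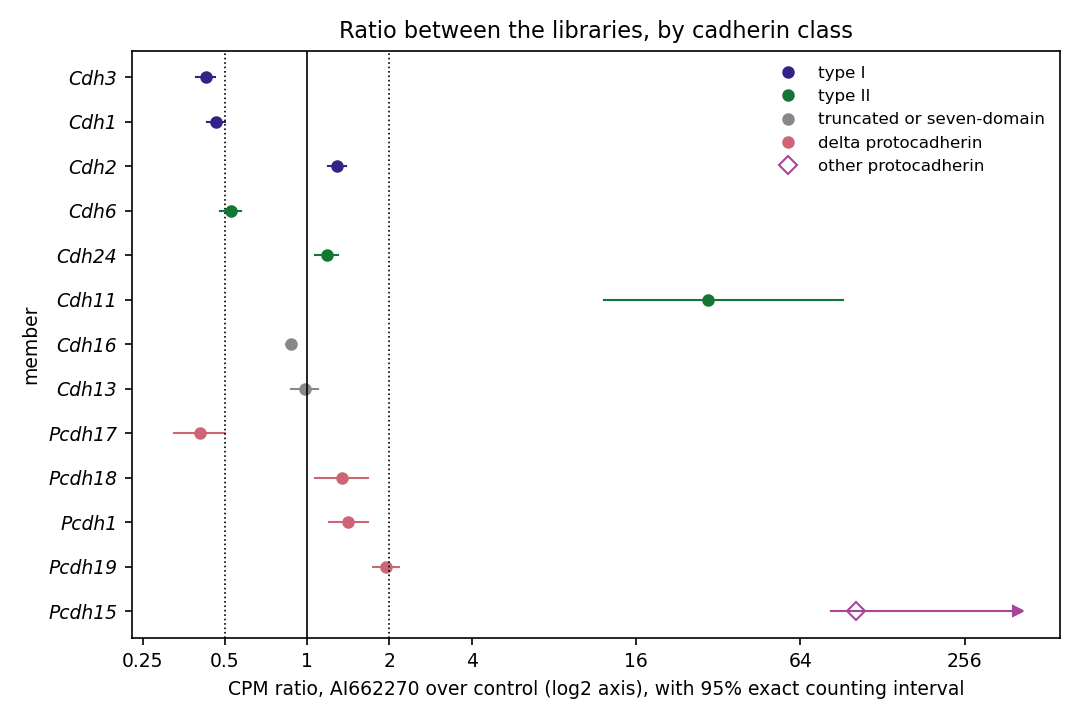
CPM ratio of each measured member, AI662270 over control, on a log2 axis with exact 95% counting intervals, grouped by cadherin class, with dotted lines at 0.5 and 2. Cdh3, Cdh1 and Pcdh17 lie below 0.5 and Cdh11 and Pcdh15 far above 2. The open diamond of Pcdh15 is its ratio of 103 against a floor of 3 counts, with an interval from 83.1 upward.

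The remaining measured Cdh genes did not pass the size rule. Cdh6, the type II K-cadherin of kidney development and tubules, on chromosome 15, had 1355 and 728 counts, 1.91-fold lower (1.74 to 2.09). Its log2 ratio of -0.92 lay just outside the size rule, while that of Cdh1 at -1.11 lay just inside. Cdh24, a type II cadherin on chromosome 14 that binds catenins, had 794 and 958 counts, 1.18-fold higher (1.07 to 1.30). It overlaps Gm17606 on the other strand, which had 8 and 2 counts. Cdh13, the T-cadherin gene whose protein is held by a lipid anchor and has no tail, had 611 and 614 counts. It was 1.02-fold lower with an interval that holds 1 (0.910 to 1.14). Cdh17, the liver-intestine cadherin gene on chromosome 4, had 8 and 22 counts and a mean of 0.969 CPM, just under the minimum, and its ratio was 2.68 (1.15 to 6.97).

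Among protocadherins, 5 of 11 were measured. Of these 1 was called higher and 1 lower, beside 5.59% and 5.72% over all measured genes. Pcdh15 encodes a protocadherin that forms the tip link of inner ear hair cells together with Cdh23. It lies on chromosome 10 from 73099342 to 74649737 and had 0 and 316 counts, or 0.853 CPM per kb (0.762 to 0.953) in the AI662270 library. It stood at 20.3 CPM in the AI662270 library. Against a floor of 3 counts, or 0.197 CPM, in place of the control count of 0, that is 103-fold higher. The exact interval reaches down to 83.1-fold and has no upper end. Its log2 ratio was the highest of the 13268 measured genes at that pseudocount, which caps the ratio of genes with fewer reads. Per kb in the AI662270 library Pcdh15 stood at 0.789 times Cdh11 (0.648 to 0.965) and made up 0.552% of the member level. This order rests on the deposited Pcdh15 length of 23773 bases. Without length scaling it was reversed, with shares of 2.55% for Pcdh15 and 1.21% for Cdh11 in that library. The 1 other gene with a read that overlaps Pcdh15, Gm5778, had 0 and 1 counts.

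The delta protocadherins, a class outside the gene clusters with conserved motifs in the tail, differed in both directions. Pcdh19, an X-linked gene known from a form of epilepsy, had 491 and 975 counts, or 3.09 and 5.98 CPM per kb, 1.94-fold higher (1.74 to 2.16). Its log2 ratio of 0.94 was just outside the rule and passed it at 1.04 under scaling by total counts and at 1.01 under upper quartiles. Pcdh17, on chromosome 14, had 302 and 125 counts, 2.48-fold lower (2.0 to 3.07), although its log2 ratio was -0.84 with 0.5 added to the deposited FPKM values and did not pass there. The level of Pcdh19 over that of Pcdh17 was thus 2.02 (1.75 to 2.34) and 9.68 (8.03 to 11.8). Pcdh1, a protocadherin of airway epithelium, had 259 and 376 counts, 1.42-fold higher (1.21 to 1.67). Pcdh18 had 138 and 189 counts, 1.34-fold higher (1.07 to 1.68). Neither passed the rule.

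The start regions of the called protocadherins are shown because they differ in base composition. Each is the 250 bases before the annotated start, from RefSeq on build GRCm38.p6, 5′ to 3′ on the gene's strand, with CG dinucleotides and the motif TATAAA in capitals. They are Pcdh15 at chr10:73821617-73821866 (plus strand), Pcdh17 at chr14:84443313-84443562 (plus strand) and, as the member nearest the rule, Pcdh19 at chrX:133688994-133689243 (minus strand).
Pcdh15: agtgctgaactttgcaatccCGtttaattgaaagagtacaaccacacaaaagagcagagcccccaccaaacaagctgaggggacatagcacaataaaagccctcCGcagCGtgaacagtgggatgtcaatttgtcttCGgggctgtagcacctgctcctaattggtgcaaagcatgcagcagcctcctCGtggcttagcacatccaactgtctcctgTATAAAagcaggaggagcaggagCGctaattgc
Pcdh17: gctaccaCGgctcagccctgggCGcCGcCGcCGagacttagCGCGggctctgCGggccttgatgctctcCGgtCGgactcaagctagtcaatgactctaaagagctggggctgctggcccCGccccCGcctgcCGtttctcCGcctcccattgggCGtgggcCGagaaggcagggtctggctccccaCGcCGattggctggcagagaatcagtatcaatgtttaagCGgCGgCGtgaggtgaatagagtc
Pcdh19: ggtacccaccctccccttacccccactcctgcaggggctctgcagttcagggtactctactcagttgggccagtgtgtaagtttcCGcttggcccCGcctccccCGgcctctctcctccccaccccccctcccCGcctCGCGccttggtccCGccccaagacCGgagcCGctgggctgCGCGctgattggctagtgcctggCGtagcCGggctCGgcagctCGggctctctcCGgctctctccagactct
The Pcdh15 window held 6 CG dinucleotides and TATAAA at position -33 from the start. The Pcdh17 and Pcdh19 windows held 21 and 16 CG dinucleotides and no TATAAA. Over all 32851 windows of this length the median was 6 CG dinucleotides with quartiles of 2 and 16, and 12.4% held TATAAA on either strand. Of 22 members with a window, Pcdh15 and Pcdh8 held TATAAA, and Pcdh15 and Cdh7 held CACCTG or its reverse complement CAGGTG, which 17.2% of all windows held. The other 12 members, among them Cdh1, Cdh2, Cdh3, Cdh11 and Cdh16, had no window, so their start regions were not searched. The start used here lies inside the deposited span of Pcdh15, and 28 of its 41 GENCODE M21 transcripts begin within 100 bases of it. Gene counts do not show which start was used.

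**Figure D3:**
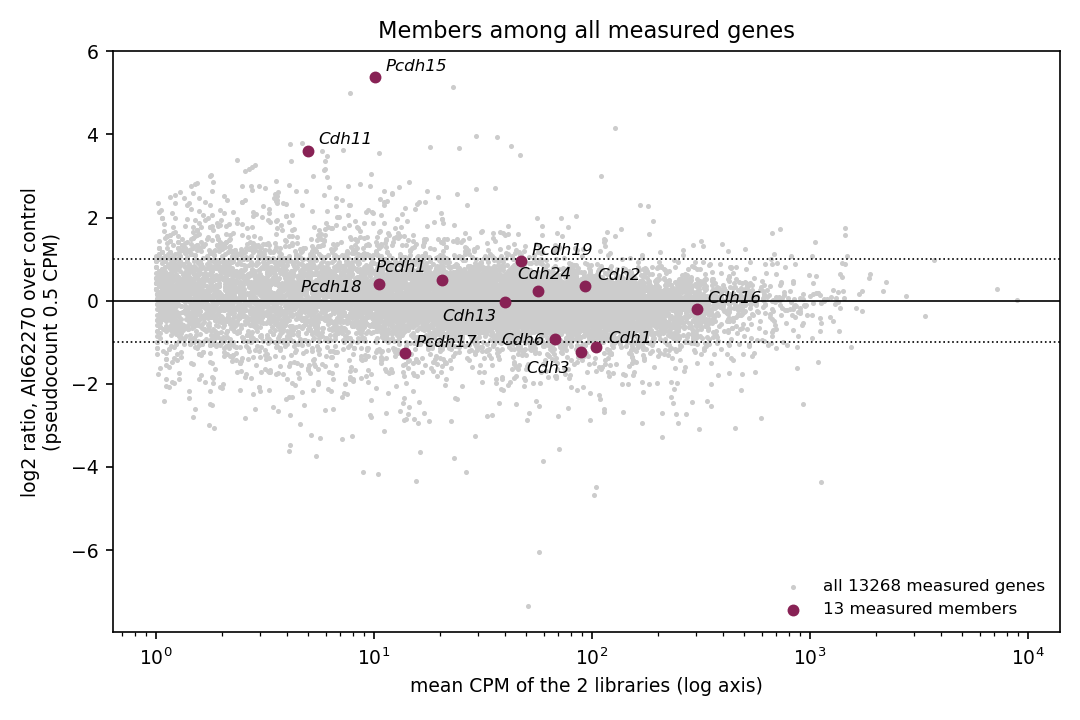
Log2 ratio of AI662270 over control against mean CPM for all 13268 measured genes (grey) and the 13 measured members (purple), with dotted lines at the size rule. Pcdh15 at 5.38 and Cdh11 at 3.61 lie at the upper edge, and Cdh1, Cdh3 and Pcdh17 lie just below -1.

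Many members were silent or nearly so. Cdh7, Cdh8, Cdh9, Cdh12, Cdh18, Cdh19, Cdh20 and Pcdh20 had 0 counts in both libraries. The floor of 3 counts stands at 0.197 and 0.193 CPM. These silent genes are 8 of 34 members, or 23.5%, beside 30.1% of all 22046 protein-coding genes. All but Pcdh20 are type II cadherins, and of the 13 genes of that class the measured ones were Cdh6, Cdh11 and Cdh24. A further 11 members had between 1 and 9 counts in their higher library and are too low to compare. The endothelial Cdh5 had 1 and 0 counts, the muscle cadherin Cdh15 6 and 2, and Pcdh12 1 and 0. Cdh23, the tip-link partner of Pcdh15, had 4 and 5 counts and overlaps Vsir, which had 87 and 76. Cdh10 had 3 and 0 counts, Cdh4 0 and 2, Pcdh7 5 and 5, and Cdh22, Cdh26 and Pcdh8 each 0 and 1. Pcdh9 had 1 and 9 counts, and lies across Gm9247 on the same strand with 26 and 105, so its value is uncertain. Pcdh10, with 5 and 15 counts, was 2.93-fold higher (1.01 to 10.3) at a mean of 0.646 CPM.

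The cytoplasmic partners of cadherins link them to actin. Of 19 catenins and junction adaptors 15 were measured, and 0 were called in either direction, beside 11.3% of all measured genes. With only 15 genes, 0 calls is near that share. The median log2 ratio of the list was -0.41. Ctnnal1 came nearest the rule with 1072 and 547 counts, 2.01-fold lower (1.81 to 2.23). Its log2 ratio with the pseudocount was -0.996. By mean CPM the most abundant were Afdn, which encodes the nectin-linked adaptor afadin, with 9058 and 5849 counts, and Ctnna1, the alpha-catenin gene, with 7668 and 8055. Ctnna1 was 1.03-fold higher, with an interval that holds 1 (0.993 to 1.06). Ctnnb1, which encodes the beta-catenin that binds the cadherin tail, had 5136 and 8014 counts, 1.52-fold higher (1.47 to 1.58). Per kb Ctnnb1, at 65.1 and 99.1, stood above Afdn, at 58.3 and 36.7. Desmosomal genes gave 1 lower and 0 higher of 7 measured members, beside 5.72% lower over all measured genes. The lower one was Dsg2, a desmosomal cadherin gene, with 103 and 32 counts, 3.30-fold lower (2.20 to 5.07).

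Larger relatives also carry cadherin repeats. Of 9 measured genes of the FAT, Dachsous, CELSR and calsyntenin list 4 were called higher and 1 lower. Over all measured genes these shares were 5.59% and 5.72%. The median log2 ratio of the list was 0.24. Clstn3, a calsyntenin gene of synapses, had 4 and 73 counts, 17.8-fold higher (6.67 to 67.1). Fat4, a giant cadherin of planar polarity and kidney development, had 12 and 98 counts, 7.97-fold higher (4.36 to 15.9). Clstn2, another calsyntenin gene, was 5.04-fold higher with 18 and 93 counts. Dchs2, with 10 and 32 counts, was the fourth. Fat4, Dchs2 and Clstn3 had under 1 CPM in the control library and passed the minimum through the AI662270 library alone. A difference was thus built into the calls of these genes. The lower member was Celsr2, a planar polarity gene with 2019 and 858 counts, 2.41-fold lower (2.23 to 2.62).

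Other lists held genes that process cadherins or repress Cdh1. Their calls stand beside 5.59% higher and 5.72% lower over all measured genes. Of 15 measured genes for proteases and turnover 1 was called higher and 1 lower, with a median of 0.04. These were the proprotein convertase genes Pcsk6, with 2 and 31 counts, and Pcsk5, with 58 and 23. Of 11 measured genes for repressors of Cdh1 1 was called higher and 0 lower, with a median of 0.33. It was Snai2, which encodes the zinc finger protein SLUG, with 0 and 40 counts. Pcsk6 and Snai2 passed the minimum through the AI662270 library alone, so a difference was built into these calls. Among 6 measured tip-link partners of Pcdh15 and Cdh23 only Pdzd7 was called, lower with 203 and 74 counts. Tmc2 of that list had 0 counts in both libraries and Tmc1 had 1 and 0. Among hair cell markers the measured one was Myo7a, a myosin gene, with 867 and 1190 counts, 1.34-fold higher (1.23 to 1.46), while Pou4f3 and Atoh1 had 0 counts in both.

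**Figure D4:**
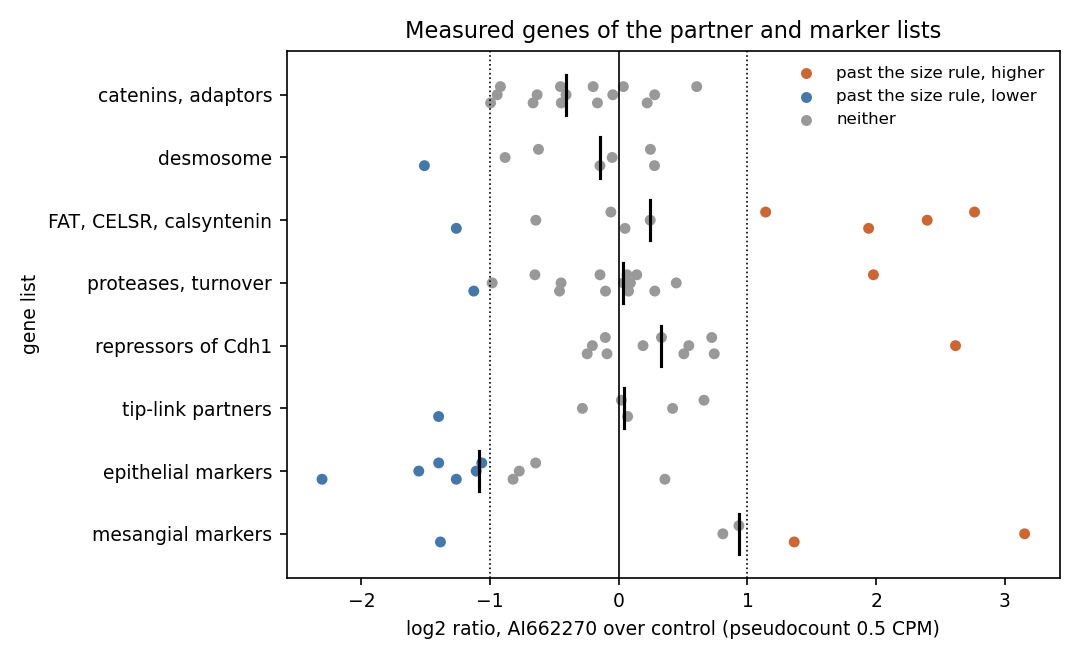
Log2 ratio of AI662270 over control for measured genes of the partner and marker lists, 1 point per gene, with a black bar at each list's median and dotted lines at the size rule. Catenins and adaptors centre at -0.41 with 0 of 15 past the rule, beside 11.3% of all measured genes. Epithelial markers, Cdh1 among them, centre at -1.09 with 6 of 10 past the rule.

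In the authors' deposited table, Pcdh15 and Cdh11 are the 2 members among the 897 genes with an adjusted p-value under 0.05, at 3.65e-21 and 1.04e-10. That value compares 1 library with 1 library.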

How the data were processed

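RNA was sequenced from 1 control library and 1 AI662270 library. CASAVA 1.4, TopHat2 and the build mm10 appear in the submitters' processing notes. The molecule label says polyA RNA and the design text ribosomal RNA removal, which was not resolved. How reads were assigned to genes, with which annotation and whether by strand, is not given in the sources used here. The deposited count columns hold whole reads per gene without normalization, judged from the values. The deposited columns named FPKM, per the file headers, were found to equal counts divided by gene length and by 15391166 in both libraries, so their ratio between libraries equals that of the raw counts. Further deposited signal columns, counts that the authors rescaled, entered no result. Per the file headers the table also carries log2 fold changes and p-values of the authors.

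Libraries were scaled by TMM in edgeR 4.0.16 (R 4.3.3). Ratios, and exact Clopper-Pearson and Poisson intervals at 95%, were computed in Python 3.11.15 with scipy 1.17.1. Where 1 library had 0 counts, a fold is taken against a floor of 3 counts, and its exact interval can reach lower. The size rule was tested on simulated data that held counting error only, so that test cannot show the spread between cultures. All 34 members were in GENCODE M21, 33 with the same coordinates and exon length. Members with at least 10 counts in either library were described singly. Each partner list names up to 3 called genes, taken by the size of the log2 ratio, or its 2 most abundant genes if it had no call, and a few further genes were picked after their values were seen. The members and lists were chosen with earlier results of these data known. Where alternatives used DESeq2, it was version 1.42.0.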

Additional observations from a re-analysis of the deposited data

How the results depend on the processing

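Alternatives were 3 other scalings (total counts, DESeq2 size factors, upper quartiles), pseudocounts of 0.1 and 2 CPM, and the deposited FPKM values. Further ones were a minimum mean of 5 CPM or none, and thresholds of 1.5-fold and 3-fold. The DESeq2 size factors were equal for both libraries. That scaling and the FPKM values therefore both rest on unscaled counts and are not separate checks of scaling. The number of members called higher was 1 instead of 2 at a mean of at least 5 CPM, since Cdh11 lies just under that mean, and the number called lower was 0 instead of 3 at the 3-fold threshold. In the other 9 of 10 alternatives each count stayed within 1.5 times. Of 78 values for single members, 75 kept their side of the size rule, and the exceptions were Pcdh19 under 2 scalings and Pcdh17 on FPKM, as given above. The median of measured members ranged from 0.10 to 0.33. Shares of the member level moved when gene length was ignored, to 34.7% and 35.6% for Cdh16 and to 15.3% and 8.32% for Cdh1. No paired analysis was possible because each group holds 1 library, and for the same reason no library could be left out. Depth limits the 21 members with a mean under 1 CPM, whose intervals are wide (1.15 to 6.97 for Cdh17).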

Other observations

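The clustered protocadherins, whose names fall outside the rule used above, were looked at after their values were seen. They lie in 3 neighbouring arrays on chromosome 18 and are known for giving neurons individual surface identities. The alpha array was nearly silent, with 0 and 1 counts over 14 genes. The 22 genes of the beta array had 10 and 52 counts in all, a CPM ratio of 5.07 (2.55 to 11.2), and none was measured. The 22 genes of the gamma array had 397 and 591 counts, a ratio of 1.45 (1.28 to 1.65). Of 7 measured ones 1 was called higher and 0 lower, beside 5.59% and 5.72% over all measured genes. Pcdhgc3 held most of these reads with 240 and 361 counts. Gamma genes share their last exons, so reads there may be split between them or dropped, and single values are uncertain.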
